A study of Mus musculus with 9 samples.

Results

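Neat1 and Malat1 are neighbouring long noncoding RNA genes whose transcripts stay in the nucleus. They were taken by gene symbol, as 2 of the 55536 genes listed for each ovary. They were chosen by their levels in these same tumour, hyperplasia and wild-type samples, so the levels are given as a description, with no p-value. The study measured gene expression by RNA-seq in mouse ovaries that carry the C134W mutation of FOXL2, to find genes that differ between the granulosa cell tumours of these mice and normal ovaries. FOXL2 is a transcription factor of granulosa cells, which line the follicle and nurse the oocyte. The tumour group held 3 ovaries with granulosa cell tumours and the hyperplasia group 3 ovaries with hyperplasia, all 6 of genotype FOXL2 WT/C134W, in which 1 allele is mutant. The wild-type group held 3 ovaries of genotype FOXL2 WT/WT. The labels give no age or strain and do not say whether the samples of a group came from separate animals. P-values therefore cover no more than the spread among these samples. Hyperplasia library 3 and tumour library 3 share the stem of their titles.

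Neat1 RNA is the scaffold of paraspeckles, nuclear bodies that gather RNA-binding proteins such as NONO and SFPQ. The gene gives a short polyadenylated RNA and a long RNA that starts at the same site, has no poly(A) tail of the usual kind, and is the form that paraspeckles need. In mice that lack Neat1, the corpus luteum, the progesterone-making gland that forms from the follicle after ovulation, often fails to form properly. Malat1 is an abundant RNA of nuclear speckles, where splicing factors are stored. The 3′ ends of Malat1 and of long Neat1 are cut by RNase P and protected by a triple helix that a genome-encoded run of A forms with U-rich stretches.

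Both genes lie on the minus strand of mouse chromosome 19 (GRCm38, GENCODE M21 annotation) and are annotated as lincRNA. Neat1 (ENSMUSG00000092274) spans chr19:5824708-5845478, which is 20771 bases. Malat1 (ENSMUSG00000092341) spans chr19:5795690-5802672, which is 6983 bases, and 22035 bases separate the 2 genes. The long transcript, Neat1-201, has 1 exon of 20771 bases, and the short transcript, Neat1-202, has 2 exons of 3004 bases in all and ends at position 5842307. The 3′ ends show what sets the forms apart, because a library made from poly(A) RNA should capture them differently. The stretches of 80 bases below come from the GENCODE M21 transcripts and are written 5′ to 3′. The capitals mark AATAAA, the common polyadenylation signal, or the U-rich stretch TTTTGCTTTT (T stands for U) and the A-rich stretch AAAAAGCAAAA.
Neat1-202, end of the short form, chr19:5842307-5842386: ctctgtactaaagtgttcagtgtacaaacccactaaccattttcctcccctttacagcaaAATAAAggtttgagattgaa
Neat1-201, end of the long form, chr19:5824708-5824787: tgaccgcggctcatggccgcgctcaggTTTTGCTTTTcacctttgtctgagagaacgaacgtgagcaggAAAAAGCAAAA
Malat1-201, A-rich stretch, chr19:5795982-5796061: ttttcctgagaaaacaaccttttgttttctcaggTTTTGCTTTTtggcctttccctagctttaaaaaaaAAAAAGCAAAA
Malat1-201, annotated end, chr19:5795690-5795769: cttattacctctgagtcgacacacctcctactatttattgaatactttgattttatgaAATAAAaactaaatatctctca

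The same 11 letters, AAAAAGCAAAA, closed both the long Neat1 form and the Malat1 stretch, each once in its transcript. They were taken as the longest end of Neat1-201 that also occurs in Malat1-201, and the Malat1 stretch was cut to end at them. Their place at both ends was therefore fixed by that choice, and TTTTGCTTTT was derived from them. In Neat1-201 they were the last bases of the annotation, whereas Malat1-201 is annotated for another 292 bases, up to an end that holds AATAAA. The motifs were searched on the transcript strand only, and TTTTGCTTTT is the reverse complement of letters inside AAAAAGCAAAA. Of the last 80 bases of all 140371 annotated transcripts at least that long, 0.0413% held AAAAAGCAAAA and 28% held AATAAA. Neat1-201, from which the letters were taken, was the 1 transcript that held both TTTTGCTTTT and AAAAAGCAAAA there. Its AAAAAGCAAAA was fixed in advance, and these shares are a description only.

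Library totals ran from 11661851 to 15163362 counts in tumours, from 13353556 to 19961741 in hyperplasia and from 15778657 to 20890537 in wild type. Foxl2 was expressed in every library, at 268, 227 and 387 CPM in tumours, 184, 129 and 338 CPM in hyperplasia and 203, 146 and 178 CPM in wild type. The gene-level tables do not show the mutation. CPM values are counts brought to a common library size, with edgeR's TMM factors applied. Tumour library 2 and wild-type library 1 stood apart from their groups. Across genes, the log2 CPM of tumour library 2 correlated with the other tumours at r = 0.882 and 0.891, against 0.965 between those 2, and wild-type library 1 with its group at 0.903 and 0.912, against 0.966. In these 2 libraries, genes with longer transcripts had lower levels relative to the mean of the other libraries. Length was the mean over the annotated transcripts of a gene. Spearman's rho across 16201 genes was -0.28 in tumour library 2 and -0.46 in wild-type library 1, against 0.04 to 0.34 in the other 7. For Neat1, Malat1 and many other genes, the value without these libraries or the value of each library is given. Group means given alone include these 2 libraries and can rest on them.

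Neat1 was low in all 3 tumours and at a similar level in hyperplasia and wild type. It measured 15.9, 11.1 and 15.1 CPM in tumour libraries 1 to 3, 167, 167 and 60.0 CPM in hyperplasia and 118, 164 and 102 CPM in wild type. The 3 tumours lay close together and below every other library, and hyperplasia library 3 was the lowest of the other 6. The counts behind these values were 240, 114 and 180 in tumours, against 3122, 2302 and 1253 in hyperplasia and 2377, 2781 and 1777 in wild type. The smallest, 114 in tumour library 2, has an exact 95% binomial interval of 7.30 to 10.6 CPM of the unscaled library total, which covers counting error only.

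Mean Neat1 was 14.0 ± 2.56 CPM in tumours, 131 ± 61.6 CPM in hyperplasia and 128 ± 31.9 CPM in wild type (SD, n = 3 each). The fitted log2 fold change was -3.19 (SE 0.41) for tumours against wild type, which is 9.10-fold lower, and -3.22 (SE 0.41) for tumours against hyperplasia, which is 9.34-fold lower. The lowest wild-type library held 6.43 times, and the lowest hyperplasia library 3.78 times, the CPM of the highest tumour. Groups in which every tumour lay below every wild-type library were common, at 13.4% of the 16213 genes tested, and 12.4% lay that way against hyperplasia. A fitted fold change as low as that of Neat1 was rarer, at 2.84% of genes in tumours against wild type and 2.29% against hyperplasia. Hyperplasia and wild type overlapped, with a fitted log2 fold change of 0.04 (SE 0.38). In whole tissue, fewer cells of a type and less RNA per cell cannot be told apart.

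Per length, the picture for Neat1 was alike. The deposited TPM, which divide by transcript length, were 8.07, 2.93 and 8.23 in tumours, 90.4, 91.3 and 30.2 in hyperplasia and 43.0, 90.5 and 56.7 in wild type. Again no tumour reached the lowest library of either other group. Among the 16213 genes tested, ordered by CPM, Neat1 stood at places 9118, 9737 and 9186 in tumours, 1132, 1120 and 4015 in hyperplasia and 1726, 1094 and 2092 in wild type.

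Malat1 differed less between the groups, and its libraries overlapped more. It measured 75.4, 188 and 105 CPM in tumours, 385, 381 and 122 CPM in hyperplasia and 259, 262 and 291 CPM in wild type. All 3 tumours lay below the wild-type libraries, but tumour library 2 lay above hyperplasia library 3. Mean Malat1 was 123 ± 58.0 CPM in tumours, 296 ± 151 CPM in hyperplasia and 270 ± 17.8 CPM in wild type (SD, n = 3 each). The fitted log2 fold change was -1.14 (SE 0.46) for tumours against wild type, which is 2.20-fold lower, -1.27 (SE 0.46) for tumours against hyperplasia and 0.13 (SE 0.46) for hyperplasia against wild type. In tumours against wild type, 11.8% of the genes tested had a fitted fold change as low as that of Malat1.

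The gap between tumours and wild type in Malat1 depended on the unit and on tumour library 2. In TPM, Malat1 stood at 30.4, 75.9 and 42.9 in tumours, 139, 135 and 50.3 in hyperplasia and 121.5, 73.5 and 99.1 in wild type, so that tumour library 2 lay above wild-type library 2. Without tumour library 2 and wild-type library 1, the fitted log2 fold change of Malat1 in tumours was -1.64 against wild type and -1.73 against hyperplasia. The corresponding values of Neat1 without those libraries were -3.13 and -3.11. By CPM, Malat1 stood at places 3293, 1226 and 2164 in tumours, 332, 329 and 1664 in hyperplasia and 594, 543 and 449 in wild type.

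**Figure D1:**
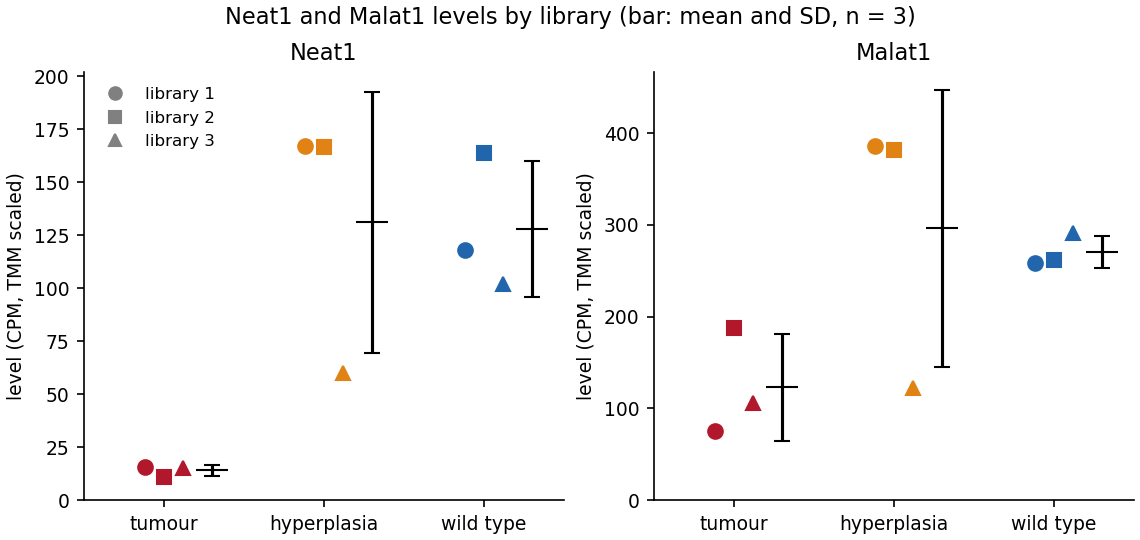
Levels of Neat1 (left) and Malat1 (right) in TMM-scaled CPM (linear axis from 0), 1 point per library, with the mean and error bars of 1 SD (n = 3 each) beside them, for tumour, hyperplasia and wild type. The 3 tumours lie between 11.1 and 15.9 CPM for Neat1, below every other library, whereas for Malat1 tumour library 2, at 188 CPM, lies above hyperplasia library 3, at 122 CPM.

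The order of the group means was therefore hyperplasia, wild type, tumour for both genes, and in both the first pair did not differ beyond the spread of their libraries. Hyperplasia library 3 was the lowest hyperplasia library for both genes. The TPM of Malat1 divided by that of Neat1 was 3.77, 25.9 and 5.21 in tumours, 1.54, 1.48 and 1.66 in hyperplasia and 2.83, 0.812 and 1.75 in wild type. Per length, Malat1 thus exceeded Neat1 more in each tumour than in any other library, and by far the most in tumour library 2. The same ratio taken on counts was 4.75, 16.9 and 6.98 in tumours, 2.31, 2.29 and 2.03 in hyperplasia and 2.19, 1.60 and 2.85 in wild type.

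Tumours formed a cluster of their own in Neat1, so the relation of the 2 RNAs was taken over the 6 hyperplasia and wild-type libraries. On log2 CPM Pearson's r was 0.896 and Spearman's rho 0.829 over these 6, given as a description with no p-value, because the genes were chosen by these levels. Leaving out wild-type library 3 and hyperplasia library 3, the 2 farthest from the median of Neat1, lowered r to 0.636. The relation rested on hyperplasia library 3, without which r was 0.541. On the TPM scale r was 0.583.

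**Figure D2:**
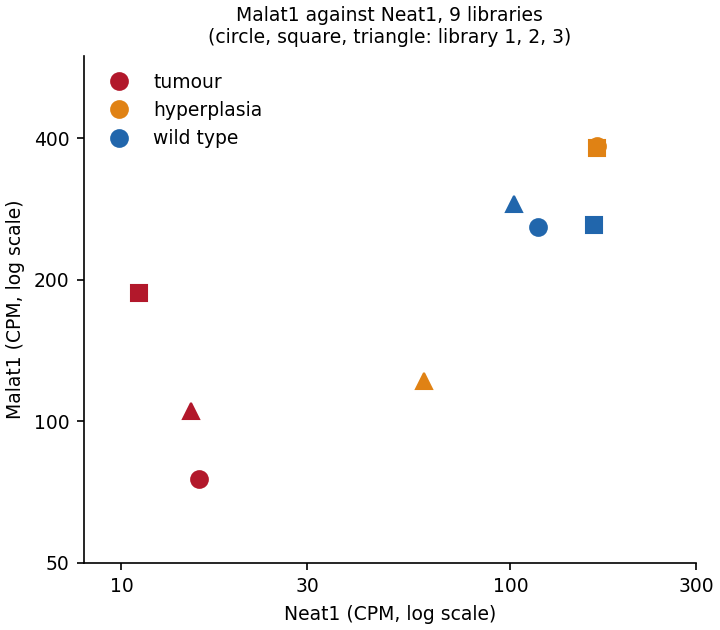
Malat1 against Neat1 in TMM-scaled CPM, both axes on a log scale, 1 point per library, coloured by tumour, hyperplasia and wild type; hyperplasia libraries 1 and 2 almost coincide. The tumours form a separate cluster at 11.1 to 15.9 CPM of Neat1, and hyperplasia library 3, at 60.0 CPM of Neat1 and 122 CPM of Malat1, lies nearest to it.

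RSEM, the authors' estimation program, writes for each gene and library a length that is the mean of the transcript lengths weighted by their estimated abundance. It reflects the estimated mix of molecules and not of reads, since a molecule of a longer form yields more reads. For Neat1 it was 3156, 3793 and 3173 bases in tumours, 3288, 3252 and 3359 bases in hyperplasia and 3197, 3302 and 3207 bases in wild type. All 9 values lay close to the 3004 bases of the short form and far from the 20771 bases of the long one. Depending on how the remainder divides among the other 3 annotated transcripts, the long form made up at least 0.855% to 4.44% and at most 12.2% to 15.4% of estimated Neat1 molecules over the 9 libraries. Tumour library 2 had the highest value, from 114 counts, and the other tumours had the lowest. The kit selects poly(A) RNA, so the long form may be captured poorly, and these shares describe the libraries and not the cells.

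The weighted length of Malat1 varied far more. It was 3931, 2543 and 4178 bases in tumours, 4831, 4908 and 4054 bases in hyperplasia and 2523, 6282 and 5103 bases in wild type, beside 6983 bases for the full-length transcript and 485 to 656 bases for the 3 short ones. The 2 shortest values came from tumour library 2 and wild-type library 1, the libraries in which genes with longer transcripts in general had lower levels. There, between 29.5% and 31.7% of estimated Malat1 molecules were full length, against 51.8% or more in each of the other 7 libraries. Malat1-202 and Malat1-204, 2 of the short annotated transcripts, lie at the 3′ end of the gene, and Malat1-203 lies at its 5′ end.

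A predicted gene on the opposite strand, Gm37376 at chr19:5801941-5802393, lies inside Malat1. It measured 2.78, 20.9 and 2.60 CPM in tumours, 6.52, 4.27 and 3.16 CPM in hyperplasia and 43.3, 1.29 and 3.62 CPM in wild type. Its 2 high values came from tumour library 2 and wild-type library 1 as well. The kit keeps strand, but no label says whether strand was used in counting, so reads of the 2 strands may not be separated. Gm27694 lies inside Malat1 on the same strand, as Gm27533, Gm27505 and Gm28006 lie inside Neat1, so counts may be shared with these small predicted RNA genes.

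**Figure D3:**
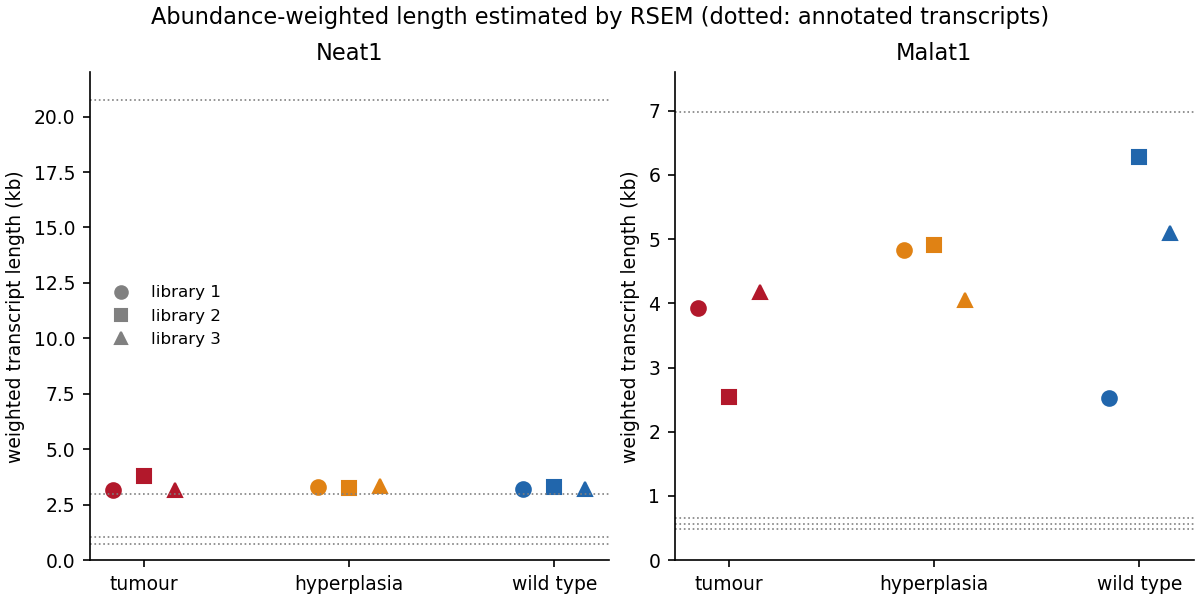
RSEM's abundance-weighted transcript length in kb (linear axis) for Neat1 (left) and Malat1 (right), 1 point per library in tumour, hyperplasia and wild type, with dotted lines at the annotated transcript lengths. Neat1 lies between 3156 and 3793 bases in all 9 libraries, whereas Malat1 spreads from 2523 to 6282 bases, with tumour library 2 and wild-type library 1 the shortest.

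The genes of proteins found in paraspeckles were fitted on both sides of their wild-type level in tumours, with a median near 0. Of the 24 listed and tested, 0 passed in any of the 3 comparisons by edgeR's quasi-likelihood test with Benjamini-Hochberg adjustment over all genes. Over all genes, it called 1.6% in tumours against wild type, 0% in hyperplasia against wild type and 0.185% in tumours against hyperplasia. The same shares apply to the lists that follow. In tumours against wild type 2 had an unadjusted p under 0.05 (20.1% of all genes did), both fitted higher, and DESeq2, which called 10.9% of all genes, and limma-voom called 0. The median log2 fold change of the list in tumours against wild type was 0.05, beside 0.01 over all genes tested, with 13 members fitted higher and 11 lower. The median was 0.04 in tumours against hyperplasia, where all genes had 0.05, and -0.05 in hyperplasia against wild type, where all genes had -0.00.

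Nono, which encodes a core paraspeckle protein that binds Neat1, measured 565, 540 and 476 CPM in tumours, 354, 328 and 407 CPM in hyperplasia and 288, 375 and 401 CPM in wild type. Every tumour lay above every other library, as in 10.6% of all genes against wild type and 9.54% against hyperplasia, with a log2 fold change against wild type of 0.57 (SE 0.22, adjusted p = 0.196, edgeR quasi-likelihood test). Pspc1, the gene of its partner paraspeckle component 1, stood at 74.1, 80.5 and 61.0 CPM in tumours, 54.7, 32.9 and 51.5 CPM in hyperplasia and 47.3, 39.5 and 52.3 CPM in wild type. It was also above every other library in each tumour, at a log2 fold change of 0.63 (SE 0.24, adjusted p = 0.189, edgeR quasi-likelihood test). The cold-inducible RNA-binding protein gene Cirbp averaged 48.8 CPM in tumours, 61.5 CPM in hyperplasia and 71.4 CPM in wild type. Its wild-type libraries stood at 98.9, 47.1 and 68.2 CPM. Rbmx, which encodes an RNA-binding protein that acts in splicing, averaged 37.2 CPM in tumours, 44.6 CPM in hyperplasia and 50.3 CPM in wild type. Their adjusted p-values in tumours against wild type were 0.304 and 0.337 by edgeR's quasi-likelihood test. Of the 24 paraspeckle genes, 2 lay above every wild-type library in each tumour (10.6% of all genes). In the other direction 3 lay below (13.4%), Rbmx among them. Against hyperplasia 2 lay above (9.54%) and 0 below (12.4%).

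The genes of nuclear speckle proteins, the bodies in which Malat1 resides, were fitted in both directions. Of 18 tested, 0 passed in the 3 comparisons by edgeR's quasi-likelihood test, and the median log2 fold change in tumours was -0.21 against wild type and -0.13 against hyperplasia. In tumours against wild type 5 had an unadjusted p under 0.05 (20.1% of all genes), 2 of them fitted higher and 3 lower, and DESeq2 called 2 (10.9% of all genes). Clk1, a kinase that phosphorylates splicing factors and whose own transcript is in part kept in the nucleus, measured 66.6, 42.3 and 114 CPM in tumours, 225, 139 and 108 CPM in hyperplasia and 213, 144 and 174 CPM in wild type. Its log2 fold change in tumours against wild type was -1.25 (SE 0.40, adjusted p = 0.128, edgeR quasi-likelihood test), and tumour library 3 overlapped hyperplasia.

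The splicing factor gene Srsf1 averaged 159 CPM in tumours, 229 CPM in hyperplasia and 251 CPM in wild type (adjusted p = 0.221, tumours against wild type, edgeR quasi-likelihood test). Srsf4, of the same SR protein family, averaged 104 CPM in tumours, 75.7 CPM in hyperplasia and 70.2 CPM in wild type. Rnps1, whose protein joins the complex left on spliced exon junctions, averaged 109.5 CPM in tumours, 86.8 CPM in hyperplasia and 76.7 CPM in wild type. Both were above every other library in each tumour, with adjusted p-values of 0.148 and 0.152 in tumours against wild type by edgeR's quasi-likelihood test. Of the 18 genes, 3 lay above every wild-type library in each tumour (10.6% of all genes) and 3 lay below (13.4%). Against hyperplasia 3 lay above (9.54%) and 1 below (12.4%).

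A list of 11 genes for RNA 3′ end processing and turnover covered the enzymes that cut or degrade such RNAs. Of them 0 passed in the 3 comparisons by edgeR's quasi-likelihood test, and 2 had an unadjusted p under 0.05 in tumours against wild type (20.1% of all genes), both fitted higher. DESeq2 called 1 gene of the list there (10.9% of all genes). The median log2 fold change of the list was 0.26 in tumours against wild type and 0.16 in tumours against hyperplasia. Elac2, the RNase Z that trims the tRNA-like piece left by the RNase P cut of Malat1, averaged 38.9 CPM in tumours, 31.1 CPM in hyperplasia and 29.2 CPM in wild type. The RNase P RNA gene Rpph1 measured 1.85, 0.487 and 3.52 CPM in tumours, 0.267, 0.289 and 0.766 CPM in hyperplasia and 0.397, 0.0588 and 0.0574 CPM in wild type. Its transcript carries no poly(A) tail, and these levels near the detection limit of a poly(A) library gave an adjusted p of 0.0976 in tumours against wild type by edgeR's quasi-likelihood test. Exosc10, a nuclease of the nuclear exosome, and Drosha, the nuclease that starts microRNA processing, averaged 70.2 and 103 CPM in tumours, 56.9 and 78.1 CPM in hyperplasia and 50.1 and 69.0 CPM in wild type. The wild-type libraries of Drosha stood at 41.0, 78.6 and 87.3 CPM. Of the 11 genes, 4 lay above every wild-type library in each tumour (10.6% of all genes) and 0 lay below (13.4%). Against hyperplasia 4 lay above (9.54%) and 0 below (12.4%). Elac2, Exosc10 and Drosha lay above in both comparisons.

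Other nuclear long noncoding RNAs also had lower fitted levels in tumours, though none passed edgeR's test. Of 11 listed, 8 passed the filter on low counts, which left out Tsix, Mirg and Miat. Of these 8, 0 were called in the 3 comparisons by edgeR's quasi-likelihood test, 2 had an unadjusted p under 0.05 in tumours against wild type (20.1% of all genes) and DESeq2 called 2 (10.9% of all genes). All 8 had a fitted log2 fold change below 0 in tumours against wild type, though Tug1 lay at -0.00, with a median of -1.01, and all 8 in tumours against hyperplasia, with a median of -0.89. The median in hyperplasia against wild type was -0.17.

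The imprinted Meg3, which is expressed from the maternal chromosome, measured 0.926, 1.07 and 1.26 CPM in tumours, 3.74, 7.45 and 0.910 CPM in hyperplasia and 4.27, 8.65 and 2.81 CPM in wild type. Its tumours lay below all wild-type libraries, as in 13.4% of all genes, and hyperplasia library 3 lay below all tumours and wild-type libraries (log2 fold change in tumours against wild type -2.27, SE 0.74, adjusted p = 0.135, edgeR quasi-likelihood test). Ftx, a positive regulator of Xist, averaged 3.13 CPM in tumours, 5.67 CPM in hyperplasia and 6.55 CPM in wild type. Airn, which silences the imprinted Igf2r gene, averaged 1.68 CPM in tumours, 3.29 CPM in hyperplasia and 3.18 CPM in wild type. Firre, an X-linked RNA that helps to organise chromatin, averaged 10.6 CPM in tumours, 22.9 CPM in hyperplasia and 20.6 CPM in wild type. The adjusted p-values of these last 3 lay between 0.148 and 0.369 by edgeR's quasi-likelihood test.

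Long noncoding RNAs that work outside nuclear bodies were also mostly fitted lower in tumours, 10 of 12 against wild type. Of these 12, which act in the cytoplasm or host small nucleolar RNAs, 0 passed in the 3 comparisons by edgeR's quasi-likelihood test, 5 had an unadjusted p under 0.05 in tumours against wild type (20.1% of all genes), all fitted lower, and DESeq2 called 4 (10.9% of all genes). Their median log2 fold change was -0.54 in tumours against wild type, -0.43 in tumours against hyperplasia and -0.43 in hyperplasia against wild type. Snhg3, a host of small nucleolar RNAs, measured 3.37, 1.95 and 2.68 CPM in tumours, 5.94, 4.78 and 4.60 CPM in hyperplasia and 11.3, 6.59 and 6.49 CPM in wild type. The 3 groups did not overlap for Snhg3, and 5.18% of all genes were lower in every hyperplasia than in every wild-type library. All tumours lay below all wild-type libraries in 13.4% of all genes and below all hyperplasia libraries in 12.4%. Of the 12 listed genes, 5 lay below wild type in this way and 4 below hyperplasia, with 0 above in either. The log2 fold change of Snhg3 in tumours against wild type was -1.60 (SE 0.38, adjusted p = 0.0687, edgeR quasi-likelihood test). Dancr averaged 1.05 CPM in tumours, 2.71 CPM in hyperplasia and 3.55 CPM in wild type (adjusted p = 0.0727 by edgeR's quasi-likelihood test), and Snhg5 averaged 11.0 CPM in tumours, 20.6 CPM in hyperplasia and 29.0 CPM in wild type. H19, an imprinted RNA abundant in the fetus, averaged 5.85 CPM in tumours, 18.5 CPM in hyperplasia and 25.7 CPM in wild type. Over all 345 other annotated lincRNA genes tested, the median log2 fold change in tumours against wild type was -0.38, with 226 fitted lower, and edgeR's quasi-likelihood test called 2 higher and 4 lower, against 0.352% and 1.25% of all genes.

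A list of 10 mRNAs known to be kept in part in the nucleus through retained introns had a median log2 fold change of -0.70 in tumours against wild type, -0.67 in tumours against hyperplasia and 0.07 in hyperplasia against wild type. Of them 0 passed in the 3 comparisons by edgeR's quasi-likelihood test, 6 had an unadjusted p under 0.05 in tumours against wild type (20.1% of all genes), all fitted lower, and DESeq2 called 3 (10.9% of all genes). All 10 were fitted lower in tumours against hyperplasia. Rsrp1, an arginine- and serine-rich protein gene, measured 102, 98.3 and 163 CPM in tumours, 354, 324 and 161 CPM in hyperplasia and 434, 272 and 247 CPM in wild type. As with Malat1, all 3 tumours lay below wild type (13.4% of all genes) while hyperplasia library 3 lay among them (log2 fold change in tumours against wild type -1.39, SE 0.37, adjusted p = 0.0875, edgeR quasi-likelihood test). Ccnl2, a cyclin gene linked to splicing, averaged 51.5 CPM in tumours, 93.1 CPM in hyperplasia and 87.4 CPM in wild type, and Luc7l3, a splicing factor gene, averaged 81.5 CPM in tumours, 128 CPM in hyperplasia and 170 CPM in wild type. The wild-type libraries of Luc7l3 stood at 261, 119 and 128 CPM. Clk1 belongs to this list too, with the values above.

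**Figure D4:**
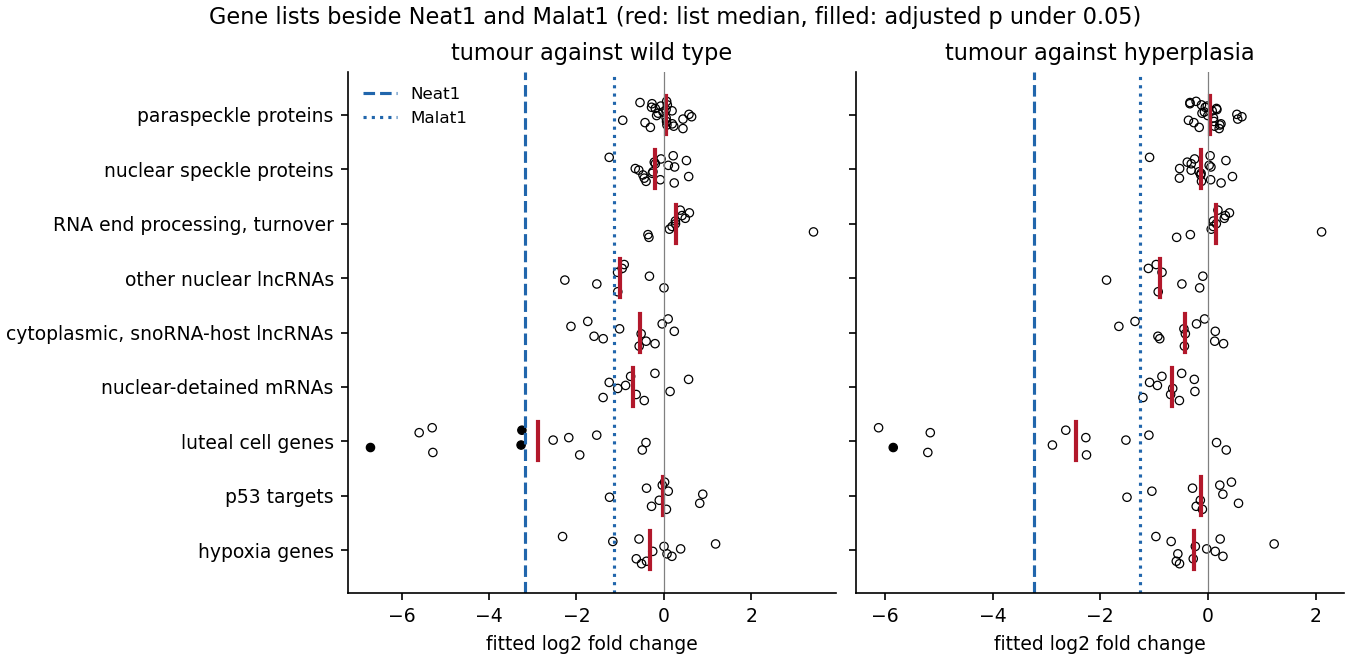
Fitted log2 fold change (horizontal axes) in tumours against wild type (left) and against hyperplasia (right) for each tested gene of each list, 1 point per gene, filled where the adjusted p is under 0.05, with list medians in red and Neat1 and Malat1 as blue vertical lines. Against wild type, the paraspeckle protein genes centre at 0.05 and the nuclear long noncoding RNAs at -1.01, whereas the luteal genes, centred at -2.89, reach past Neat1.

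Genes of luteal cells had the lowest median of the lists in tumours. They were listed because of the known part of Neat1 in the corpus luteum, with their earlier results in these samples known, so that their direction is no independent evidence. All 12 were fitted lower in tumours than in wild type, with a median log2 fold change of -2.89, and 3 passed by edgeR's quasi-likelihood test, against 1.25% of all genes called lower. Against hyperplasia the median was -2.45 and 1 passed, against 0.185% of all genes. In hyperplasia against wild type the median was -0.44 and 0 passed by edgeR's quasi-likelihood test, with 0 at an unadjusted p under 0.05 (3.53% of all genes) and 0 by DESeq2 (0.12% of all genes). The calls depended on single libraries. Against wild type there was 1 without tumour library 2, 1 without wild-type library 2, and 0 without any other single tumour or wild-type library. Against hyperplasia there were 4 without hyperplasia library 3 and 0 without any other single tumour or hyperplasia library. Without tumour library 2 and wild-type library 1 together there were 0 in both comparisons, as with a term for the title stem shared by tumour library 3 and hyperplasia library 3, or without those 2 libraries.

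Ptgfr, the receptor of the prostaglandin that makes the corpus luteum regress, measured 4.63, 6.23 and 4.61 CPM in tumours, 290.2, 385 and 214 CPM in hyperplasia and 990, 77.3 and 552 CPM in wild type. The 3 tumours lay far below every other library, and in tumours it fell by 6.71 on the log2 scale against wild type (SE 0.88, adjusted p = 0.0287, edgeR quasi-likelihood test) and fell by 5.85 against hyperplasia (SE 0.84, adjusted p = 0.0402, edgeR quasi-likelihood test). All tumours lay below all wild-type libraries in 13.4% of all genes, and below all hyperplasia libraries in 12.4%. Cyp11a1, the enzyme that makes pregnenolone from cholesterol, measured 641, 1040.5 and 458 CPM in tumours, 4760, 6624 and 1957 CPM in hyperplasia and 9562, 5526 and 5242 CPM in wild type. It fell by 3.25 against wild type (SE 0.56, adjusted p = 0.0404, edgeR quasi-likelihood test). Prlr, the receptor through which prolactin sustains the rodent corpus luteum, measured 50.7, 31.3 and 123 CPM in tumours, 739, 512 and 268 CPM in hyperplasia and 1046, 369 and 559 CPM in wild type. It fell by 3.27 (SE 0.64, adjusted p = 0.0464, edgeR quasi-likelihood test), and in it as in Neat1 hyperplasia library 3 was the lowest of the 6 libraries that are not tumours. Sfrp4, a secreted Wnt antagonist high in the corpus luteum, measured 84.3, 20.0 and 71.1 CPM in tumours, 2471, 1973 and 2022 CPM in hyperplasia and 5403, 182 and 1253 CPM in wild type, of which library 1 is the highest (adjusted p = 0.0556, tumours against wild type, edgeR quasi-likelihood test).

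The 12 luteal markers summed to 4181, 4147 and 4288 CPM in tumours, 18426, 18404 and 10366 CPM in hyperplasia and 32393, 13263 and 16013 CPM in wild type. All were detected in every library, except Akr1c18, the enzyme that breaks down progesterone, which had 0 counts in tumour library 2. The marker sum thus separated tumours from the other libraries as Neat1 did, with hyperplasia library 3 the lowest of the other 6 in both. Cyp11a1 and Hsd3b1 had the highest means of the list in hyperplasia and wild type and weigh most in these sums. Single markers differed: of the 6 libraries, wild-type library 2 was the lowest for Ptgfr, Sfrp4, Akr1c18 and Hsd17b7. Hyperplasia library 3 was the lowest for the other markers. Within wild type the 2 did not go together, since library 1 had the highest marker sum and library 2 the highest Neat1. Marker lists of other cells moved too. The macrophage and adipocyte sums also separated all tumours from the rest. In both, hyperplasia library 3 was the lowest of the other 6, at 593 and 21.6 CPM. It was also the lowest of these 6 for oocyte and endothelial markers, at 16.5 and 323 CPM. The smooth muscle sum separated tumours as well, with wild-type library 3 the lowest of the rest, at 1073 CPM. The 8 macrophage markers summed to 146, 434 and 164 CPM in tumours, 593 to 992 CPM in hyperplasia and 681 to 898 CPM in wild type, and Cd163 had 0 counts in tumour library 2. The 6 smooth muscle markers summed to 398, 327 and 951 CPM in tumours, 2437 to 5743 CPM in hyperplasia and 1073 to 2301 CPM in wild type, with none at 0.

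Oocyte and adipocyte markers were below every wild-type library in tumours as well, and the oocyte sums overlapped hyperplasia. The 10 oocyte markers summed to 4.97 to 22.9 CPM in tumours, with 4 to 6 of them at 0 counts and Zp2, Zar1 and Nlrp5 at 0 in all 3, against 16.5 to 95.7 CPM in hyperplasia and 167 to 225 CPM in wild type. The 6 adipocyte markers summed to 13.1 to 18.3 CPM in tumours, where Adipoq, Cfd, Retn and Lep had 0 counts, against 21.6 to 52.8 CPM in hyperplasia and 62.8 to 126 CPM in wild type. The 8 granulosa cell markers, which check the labelled tissue, summed to 3512 to 4601 CPM in tumours, 870 to 2619 CPM in hyperplasia and 1450 to 3416 CPM in wild type. Of these only Fshr was at 0 counts, in tumour library 2. Endothelial markers overlapped between all groups, at 239 to 501 CPM in tumours, 323 to 483 CPM in hyperplasia and 412 to 431 CPM in wild type. Theca, stromal, surface epithelial and red blood cell markers overlapped between tumours and the other groups too. The part of these cell types in the levels of Neat1 and Malat1 was not tested.

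Neat1 is known as a target of p53 and as a hypoxia-induced gene. The edgeR test called no gene of either set, but it called few genes at all. Its shares over all genes were 1.6% in tumours against wild type, 0% in hyperplasia against wild type and 0.185% in tumours against hyperplasia. A part of p53 or hypoxia was not tested. Of 10 p53 target genes, 0 passed in the 3 comparisons by edgeR's quasi-likelihood test, 1 had an unadjusted p under 0.05 in tumours against wild type (20.1% of all genes) and DESeq2 called 1 (10.9% of all genes). Their median log2 fold change was -0.01 in tumours against wild type and -0.12 in tumours against hyperplasia. The death receptor gene Fas measured 1.45, 1.56 and 1.51 CPM in tumours, 4.38, 5.43 and 3.06 CPM in hyperplasia and 4.22, 3.71 and 2.81 CPM in wild type, with every tumour below the rest (log2 fold change in tumours against wild type -1.24, SE 0.38, adjusted p = 0.118, edgeR quasi-likelihood test). In every tumour, 13.4% of all genes lay below every wild-type library and 12.4% below every hyperplasia library. Ccng1, a cyclin G gene that p53 induces, averaged 77.5 CPM in tumours, 94.5 CPM in hyperplasia and 102 CPM in wild type. Sesn2, a stress-induced regulator of growth signalling, measured 20.6, 62.6 and 19.8 CPM in tumours, 32.0, 21.1 and 16.3 CPM in hyperplasia and 13.6, 20.9 and 23.9 CPM in wild type, so that tumour library 2 alone stood out. Eda2r, a receptor of the tumour necrosis factor family, averaged 18.0 CPM in tumours, 14.8 CPM in hyperplasia and 9.73 CPM in wild type.

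Of the 13 hypoxia genes listed, 12 were matched by symbol and tested, with a median log2 fold change of -0.33 in tumours against wild type and -0.25 in tumours against hyperplasia. By edgeR's quasi-likelihood test 0 passed in the 3 comparisons, 2 had an unadjusted p under 0.05 in tumours against wild type (20.1% of all genes), both fitted lower, and DESeq2 called 1 (10.9% of all genes). Bnip3, a mitochondrial protein gene of mitophagy, averaged 61.6 CPM in tumours, 98.9 CPM in hyperplasia and 139 CPM in wild type (adjusted p = 0.0674 by edgeR's quasi-likelihood test). The glycolytic gene Pgk1 averaged 167 CPM in tumours, 201 CPM in hyperplasia and 258 CPM in wild type. The peptide hormone gene Adm measured 4.76, 2.53 and 2.43 CPM in tumours, 9.62, 4.63 and 4.83 CPM in hyperplasia and 41.2, 3.06 and 4.48 CPM in wild type, with wild-type library 1 the highest. Egln3, an oxygen sensor of the hypoxia pathway, measured 8.79, 61.5 and 4.45 CPM in tumours, 8.77, 13.7 and 9.33 CPM in hyperplasia and 5.86, 14.4 and 12.6 CPM in wild type, with tumour library 2 the highest.

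The genes around Neat1 and Malat1 were fitted in both directions, 19 higher and 12 lower in tumours than in wild type. Of 51 other genes annotated within 250 kb, 31 were tested, and their median log2 fold change was 0.17 in tumours against wild type, 0.25 in tumours against hyperplasia and -0.13 in hyperplasia against wild type. Of them 1, Ehbp1l1, passed in tumours against wild type and against hyperplasia by edgeR's quasi-likelihood test. That test called 1.6% of all genes in tumours against wild type and 0.185% against hyperplasia. In hyperplasia against wild type 0 passed by edgeR's quasi-likelihood test, 1 had an unadjusted p under 0.05 (3.53% of all genes) and DESeq2 called 0. Frmd8, at 4224 bases from Neat1, whose protein supports the release of cell-surface signals, measured 47.3, 63.9 and 41.9 CPM in tumours, 48.2, 73.7 and 52.7 CPM in hyperplasia and 55.3, 69.7 and 57.2 CPM in wild type. All groups overlapped, with a log2 fold change in tumours against wild type of -0.25 (SE 0.24, adjusted p = 0.613, edgeR quasi-likelihood test).

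On the other side, at 37158 bases from Malat1, Ltbp3, whose protein stores TGF-beta in the extracellular matrix, measured 453, 826 and 476 CPM in tumours, 369, 341 and 395 CPM in hyperplasia and 261, 286 and 269 CPM in wild type. The 3 groups did not overlap, and 4.63% of all genes were higher in every hyperplasia than in every wild-type library. All tumours lay above all wild-type libraries in 10.6% of all genes and above all hyperplasia libraries in 9.54%. The log2 fold change in tumours against wild type was 1.11 (SE 0.27, adjusted p = 0.0707, edgeR quasi-likelihood test). Ehbp1l1, at 69373 bases from Malat1 and known for a part in membrane traffic in epithelial cells, measured 17.6, 15.8 and 23.7 CPM in tumours, 65.9, 94.4 and 53.5 CPM in hyperplasia and 54.6, 62.5 and 43.1 CPM in wild type. In tumours it fell by 1.49 on the log2 scale against wild type (SE 0.28, adjusted p = 0.0449) and fell by 1.90 against hyperplasia (SE 0.28, adjusted p = 0.0434, edgeR quasi-likelihood test). Leaving out any single tumour or wild-type library ended the first call. The second held without hyperplasia library 3 and ended without any other single tumour or hyperplasia library. Neither held without tumour library 2 and wild-type library 1, with the term for the shared title stem, without both libraries of that stem, or on log2 of TPM + 1.

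The other neighbours with low adjusted p-values in tumours against wild type were Tm7sf2, Dpf2 and Gm42067, at 0.0884, 0.116 and 0.129 by edgeR's quasi-likelihood test. Tm7sf2, an enzyme of cholesterol synthesis, measured 2.45, 3.80 and 2.35 CPM in tumours, 21.5, 22.2 and 4.21 CPM in hyperplasia and 102, 9.94 and 10.4 CPM in wild type. Every tumour lay below every other library, as in 13.4% of all genes against wild type and 12.4% against hyperplasia. Hyperplasia library 3 was the lowest of the other 6. Dpf2, a subunit of a chromatin-remodelling complex, averaged 102 CPM in tumours, 71.4 CPM in hyperplasia and 68.8 CPM in wild type.

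**Figure D5:**
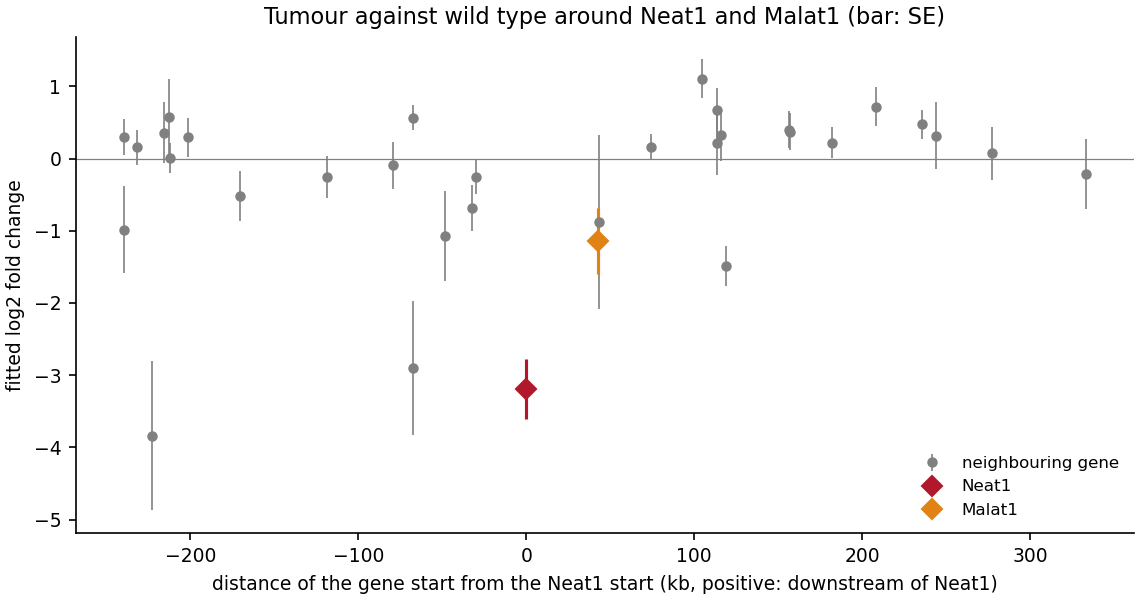
Fitted log2 fold change in tumours against wild type (vertical axis, error bars of 1 SE) for the 31 tested genes within 250 kb of Neat1 or Malat1 and for both of these, by distance in kb from the Neat1 start, positive downstream. Neat1 (-3.19) and Malat1 (-1.14) lie among genes whose median is 0.17, and Tm7sf2 (-3.84, SE 1.03) is the neighbour fitted lowest.

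By pattern over the 9 libraries (Pearson r of log2 CPM, among 10298 genes whose mean was 10 CPM or more), 127 genes had an r over 0.9 with Neat1 and 33 with Malat1. Such a correlation is a description: the 9 libraries are shared, and Neat1 separates tumours from the rest, so that a gene low in all tumours can score high. The 5 genes most like Neat1 were Itgam (r = 0.98), the integrin chain of macrophages and other myeloid cells, Cemip (0.98), which breaks down hyaluronan, Wnt10b (0.98), a Wnt ligand, Cav2 (0.97), a protein of caveolae, and Slc1a5 (0.97), a glutamine transporter. Cemip averaged 8.86 CPM in tumours, 249.6 CPM in hyperplasia and 239 CPM in wild type. Wnt10b averaged 1.10 CPM in tumours, 59.7 CPM in hyperplasia and 65.0 CPM in wild type. Itgam averaged 5.42 CPM in tumours, 13.6 CPM in hyperplasia and 17.03 CPM in wild type, and it is also 1 of the macrophage markers above. With group means removed, r with Neat1 was 0.99 for Itgam, 0.78 for Cemip, 0.74 for Wnt10b, 0.68 for Cav2 and 0.91 for Slc1a5.

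Among the genes most opposed to Neat1 were Gna12 (r = -0.98), a G protein subunit, Maz (-0.97), a zinc-finger transcription factor, and Pwp1 (-0.97). Their levels differed less between groups than those of Neat1: Gna12 averaged 238 CPM in tumours, 171 CPM in hyperplasia and 164 CPM in wild type, and Maz averaged 245 CPM in tumours, 145 CPM in hyperplasia and 135 CPM in wild type. With Malat1, the highest were Srsf1 (r = 0.97), described above, whose protein is known to bind Malat1, Wdfy1 (0.97), an endosomal adaptor, Slco2a1 (0.96), a prostaglandin transporter, Twf1 (0.95), an actin-binding protein, and Tnxb (0.95), an extracellular matrix protein. Slco2a1 averaged 32.4 CPM in tumours, 83.3 CPM in hyperplasia and 96.8 CPM in wild type, and Twf1 averaged 75.0 CPM in tumours, 104 CPM in hyperplasia and 103 CPM in wild type.

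The lowest with Malat1 were Zfp346 (r = -0.99), a protein that binds double-stranded RNA, Pald1 (-0.99), Snx6 (-0.97), a sorting nexin, Slc44a3 (-0.97) and Col26a1 (-0.97), a collagen. Col26a1 averaged 92.7 CPM in tumours, 37.6 CPM in hyperplasia and 15.6 CPM in wild type. The choice of measure changed these names: by Spearman's rho, 0 of the 5 genes most like Neat1 and 1 of the 5 most like Malat1 stayed among the 5 highest, and with group means removed 1 and 2 did. No gene was among the 5 highest of both Neat1 and Malat1.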

How the data were processed

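Poly(A) RNA-seq of 9 mouse ovaries was analysed from gene tables, 1 per library, that the authors made with RSEM, per the file headers. RNA was extracted with Trizol and libraries came from a stranded TruSeq mRNA kit, per the labels' protocols. The submitters' processing notes list RSEM 1.3.1, STAR 2.7.1a, Picard 2.8.1, FastQC and GRCm38, with no role or order. The authors' expected counts carry no normalisation, and 25.6% of those above 0 are not whole at a tolerance of 0, since RSEM divides a read that fits several genes among them. The authors' TPM, scaled for length and depth, served for levels per length and in 1 alternative. The deposited FPKM values were not used. The lengths in the deposited tables are RSEM's means over transcripts weighted by abundance. All 55536 identifiers matched GENCODE M21, from which symbols, coordinates and sequences were taken.

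Expected counts were rounded. Tests across genes used edgeR 4.0.16 under R 4.3.3: TMM scaling (factors 0.797 to 1.08), filterByExpr (count minimum 10, total minimum 15, 16213 genes left), 1 quasi-likelihood fit of the 3 groups over 9 libraries, and Benjamini-Hochberg adjustment over all genes at 0.05. The common biological coefficient of variation was 0.432. The fit was also run on simulated counts with known changes, in which all genes shared 1 spread and no library stood apart. Such a run checks the code and not how the fit performs on these data. Alternatives used DESeq2 1.42.0, limma 3.58.1 (voom, and log2 of TPM + 1), other scalings and filters, and left out each library in turn. The members and lists were chosen with earlier results of these data known, and lists are described by counts and medians with no set test. From each list the 4 members with the smallest adjusted p in tumours against wild type, and every member that passed, are named, together with the 5 genes of highest and lowest r with each member, apart from a few that are not reported here. A relation over all 9 libraries was planned and was taken over 6 instead, because tumours form a separate cluster, and its planned permutation p is not given, since the members were chosen by these levels.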

Additional observations from a re-analysis of the deposited data

How the results depend on the processing

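The log2 differences of Neat1 and Malat1 moved by less than the spread between replicates under all 15 alternatives, and those of tumours kept their direction. They ranged in tumours against wild type from -3.33 to -2.95 for Neat1 and from -1.64 to -0.81 for Malat1, in tumours against hyperplasia from -3.62 to -3.01 and from -1.73 to -1.01, and in hyperplasia against wild type, where both changed sign in some alternatives, from -0.17 to 0.38 and from -0.10 to 0.50.

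Counts of calls over all genes moved far more. Of 259 in tumours against wild type there were 1747 by DESeq2, 726 with no low-count filter, 428 on log2 of TPM + 1, 0 with a term for the shared title stem and 0 without both of its libraries. There were 8 without tumour library 2 and wild-type library 1, an alternative chosen after seeing the data, and 0 to 69 with 1 library left out. Of 30 in tumours against hyperplasia there were 816 by DESeq2, 4 by limma-voom, 199 with no filter, 76 on TPM, 1 from these 2 groups alone, 12 with the stem term, 0 without both stem libraries, 0 without tumour library 2 and wild-type library 1, and 0 to 128 with 1 library left out. Against the 0 in hyperplasia against wild type (572 genes at an unadjusted p under 0.05), there were 19 by DESeq2, 2 with no filter, 1 on TPM, 3 from these 2 groups alone and 2 without tumour library 2 and wild-type library 1. The calls of luteal genes in tumours against wild type ranged from 0 to 10. The cause was not tested. With 1 of the 6 libraries left out, the r of Neat1 with Malat1 ranged from 0.541 without hyperplasia library 3 to 0.966 without wild-type library 2. It was 0.946 without wild-type library 3.

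No paired analysis was possible because the labels carry no replicate numbers, and the title stem links 1 pair of libraries only. The 3 libraries per group and the 114 to 240 Neat1 counts in tumours limit precision.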
